A study of Homo sapiens with 12 samples.

Results

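Melanoma cells can move between a differentiated, melanocyte-like state and less differentiated states that resemble the neural crest or mesenchyme, a change called phenotype switching. The genes described here are 10 factors and markers of that switch, chosen by symbol: ZEB1, ZEB2, SNAI1, SNAI2, TWIST1, SOX9, SOX2, NGFR, VIM and FN1. All 10 were among the 56609 gene symbols of the count table, and all 10 passed the filter on low counts. They were measured by RNA sequencing in A375, an established human malignant melanoma cell line.

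There were 4 groups of 3 libraries. Wild-type cells and MAPKAPK2 knockout cells, made with CRISPR/Cas9, each received 500 nM JQ1, or DMSO as the solvent control, over 48 h. MAPKAPK2 encodes MK2, a kinase acting downstream of the stress kinase p38, and JQ1 displaces bromodomain and extra-terminal (BET) proteins from acetylated chromatin. The sample titles call the libraries without JQ1 untreated, while the treatment label gives DMSO, and the treatment label was followed. Whether the knockout cells are a single clone, and whether the 3 replicates were separate cultures, is not given in the sources used here, so p-values measure the spread between these libraries, which may be technical. Nor can an effect of losing MAPKAPK2 be told apart from any other difference between the knockout and wild-type cells.

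ZEB1, ZEB2, SNAI1, SNAI2 and TWIST1 are transcription factors of the epithelial-mesenchymal transition (EMT); in epithelial cells they repress E-cadherin. In melanocytes and melanoma this family is split, with ZEB2 and SNAI2 tied to the differentiated melanocyte lineage and ZEB1 and TWIST1 to its loss. SOX9 acts in neural crest and glial development, SOX2 is a stem cell and neural progenitor factor, and NGFR (p75NTR, CD271) is the low-affinity neurotrophin receptor by which neural crest-like melanoma cells are recognised. VIM encodes the intermediate filament protein vimentin and FN1 encodes the matrix glycoprotein fibronectin, both products of mesenchymal cells.

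Promoter windows of VIM and FN1 are shown because both genes are classical mesenchymal markers and their RNA levels moved in opposite directions under JQ1. The RefSeq promoter table (build GRCh38.p14) matched 5 of the 10 genes: ZEB1, ZEB2, SOX2, VIM and FN1. Each sequence covers the 250 bases before a transcription start, on the gene's own strand and 5′ to 3′. The start was that of the gene's first entry in the promoter table. Other starts were not examined, so a window may not hold the promoter used in A375. Capitals mark the cAMP response element TGACGTCA and the GC box GGGCGG, searched on both strands with overlaps counted; these motifs were chosen after the sequences were read. The VIM sequence is chr10:17227991-17228240, plus strand, and the FN1 sequence is chr2:215436069-215436318, minus strand.
VIM: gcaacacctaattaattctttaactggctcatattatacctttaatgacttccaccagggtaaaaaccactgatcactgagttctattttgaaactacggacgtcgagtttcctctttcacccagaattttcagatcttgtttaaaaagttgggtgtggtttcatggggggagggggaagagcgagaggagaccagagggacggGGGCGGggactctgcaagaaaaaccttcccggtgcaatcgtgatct
FN1: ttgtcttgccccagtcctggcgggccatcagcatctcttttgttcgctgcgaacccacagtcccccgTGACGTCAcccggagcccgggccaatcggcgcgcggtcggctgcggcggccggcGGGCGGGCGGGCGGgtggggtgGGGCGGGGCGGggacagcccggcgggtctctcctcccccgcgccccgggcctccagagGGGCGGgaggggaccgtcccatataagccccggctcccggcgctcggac

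The FN1 window had a GC content of 76.4%, higher than 92.2% of the 27305 promoters in the table, with 6 GC boxes and 1 cAMP response element. The VIM window had 46.0% GC, with 1 GC box and no cAMP response element. A GC box occurred in 42.3% of all promoters of the same length and in 4 of the 5 matched genes, and TGACGTCA in 1.77% of all promoters and in FN1 alone of the 5. The sequence CACCTG, an E-box that SNAI and ZEB proteins can bind, was found in ZEB1 only, against 17.5% of all promoters. The AP-1 sequence TGANTCA (6.60% of all promoters) and the SOX core AACAAT (9.19%) were found in none of the 5 windows. A match describes letters and was not compared with binding.

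The libraries held 25316899 to 34594295 estimated counts, and 31252 to 34075 symbols had at least 1 count. MAPKAPK2 fell by 2.85 on the log2 scale in knockout against wild type in DMSO and by 3.02 in JQ1, and its count ran from 311 to 497 in the 6 knockout libraries and from 2483 to 3805 in the 6 wild-type libraries. Knockout JQ1 replicate 3 stood apart from its replicates: chi-square per degree of freedom was 25.5 and 26.8 against them, compared with 3.32 to 7.58 for the other replicate pairs. It also had the highest share of 4 abundant noncoding RNAs (14.6%; lowest library 9.42%). SOX10, the neural crest and melanocyte lineage factor, was at 437 ± 7.38 CPM and MITF at 43.1 ± 1.01 CPM in wild-type DMSO (SD, n = 3), where CPM are counts per 1000000 of the scaled library. The pigment genes MLANA, PMEL, TYR and DCT had group means from 0 to 1.18 CPM, so these melanocyte markers were nearly absent from this line.

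**Figure D1:**
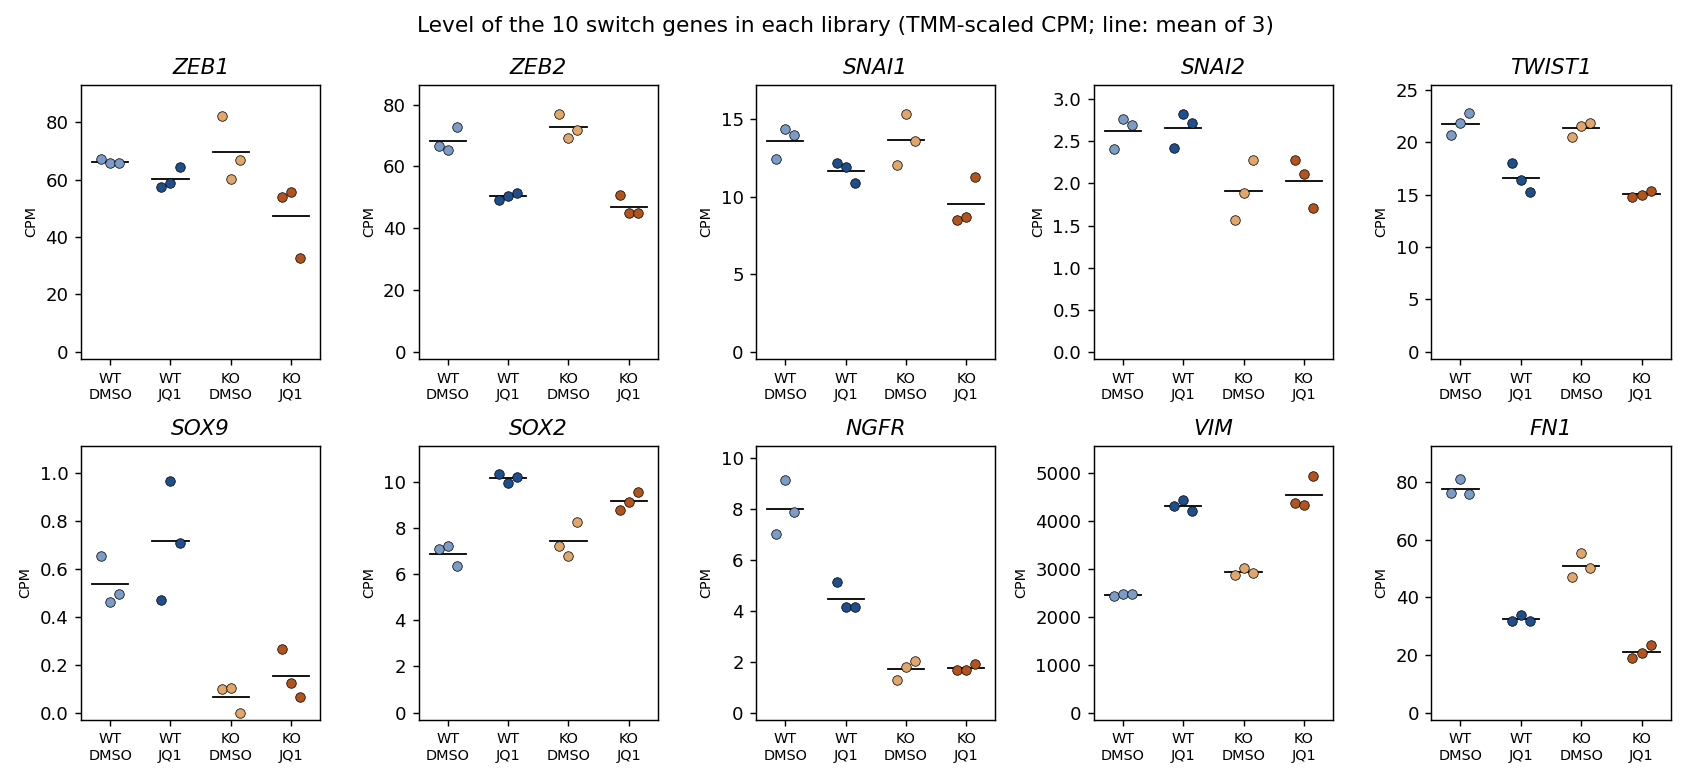
CPM of the 10 genes (vertical axes, each starting just below 0, on a scale of its own) in the 3 libraries of each group (points), with the group mean as a line. NGFR and SOX9 are low in all 6 knockout libraries, FN1 is lowest in knockout JQ1, and VIM is high in all 6 JQ1 libraries.

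Divided by exon length, the genes covered a wide range in wild-type DMSO. VIM stood first at 478 ± 4.47 CPM per kb (SD, n = 3 here and below). TWIST1 followed at 10.7 ± 0.511, then SNAI1 at 8.08 ± 0.605 and ZEB1 at 7.65 ± 0.0974 CPM per kb, and these last were not separated, since their libraries overlapped. FN1 was next at 4.50 ± 0.168 CPM per kb. SOX2 (2.74 ± 0.181) and ZEB2 (2.72 ± 0.163) overlapped each other. NGFR at 1.93 ± 0.258, SNAI2 at 0.773 ± 0.0543 and SOX9 at 0.136 ± 0.0265 CPM per kb closed the order. Thus the EMT factor with the lowest level was SNAI2, and TWIST1 had the highest level per kb of the 5. Before division by length ZEB2 (68.2 CPM) and ZEB1 (66.2 CPM) lay above TWIST1 (21.8 CPM). The first place of TWIST1 thus depends on the exon lengths used, 25058 bases for ZEB2, 8650 for ZEB1 and 2033 for TWIST1.

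The order shifted with the group. Under JQ1 FN1 lay below SOX2 without overlap in both genotypes, at 1.88 ± 0.0685 CPM per kb in wild type and 1.21 ± 0.133 in knockout, and SOX2 lay above ZEB2 without overlap. In knockout DMSO the ranges of SOX2, FN1 and ZEB2 overlapped in that order, from 2.96 to 2.90 CPM per kb. NGFR fell to 0.410 ± 0.0925 CPM per kb in knockout DMSO, where it overlapped SNAI2 at 0.564 ± 0.105. VIM was first and SOX9 last in all 4 groups. These lengths are unions of all annotated exons, so a gene of which A375 uses only short transcripts is placed too low.

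**Figure D2:**
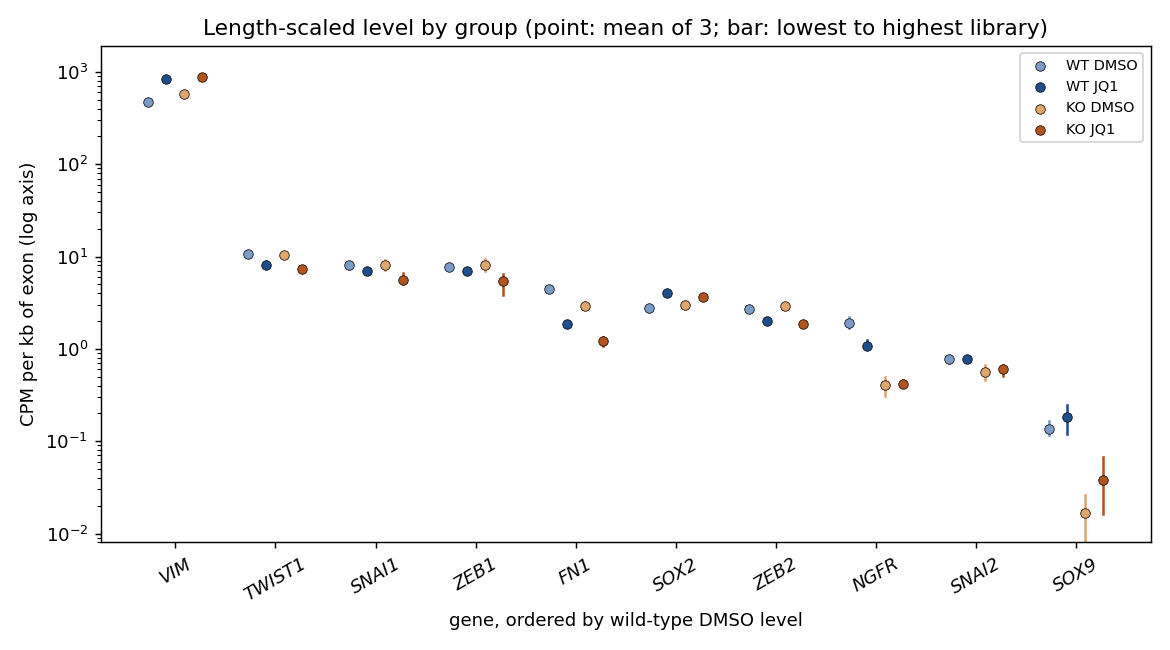
Mean CPM per kb of exon (log axis) for each gene and group, with bars from the lowest to the highest library; the bar of a group with a library at 0 runs off the bottom of the axis. VIM lies far above the other 9 genes, and SOX9 lies below them in each group.

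Each of the 10 genes was compared between groups within one edgeR fit over 21698 genes, with an adjusted p under 0.05 as the threshold. With JQ1 in wild type 6 of the 10 genes passed, 2 higher and 4 lower, where 33.1% of all tested genes passed (16.9% higher and 16.2% lower). With JQ1 in knockout 7 passed, 2 higher and 5 lower, against 34.4% of all tested genes (16.7% higher and 17.8% lower). Between the genotypes, 4 passed in DMSO (1 higher, 3 lower; 7.92% of all genes, 3.47% higher and 4.44% lower) and 3 passed in JQ1, all lower (8.57%, 3.01% higher and 5.56% lower). Scaling by library totals alone moved the balance over all genes to 2298 higher and 5368 lower with JQ1 in wild type, 2409 and 5250 with JQ1 in knockout, 516 and 1158 for the knockout in DMSO. The median over all tested genes thereby moved by -0.13 and -0.12 on the log2 scale in the JQ1 comparisons. In bulk RNA, fewer cells of a kind and less RNA per cell cannot be told apart.

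**Figure D3:**
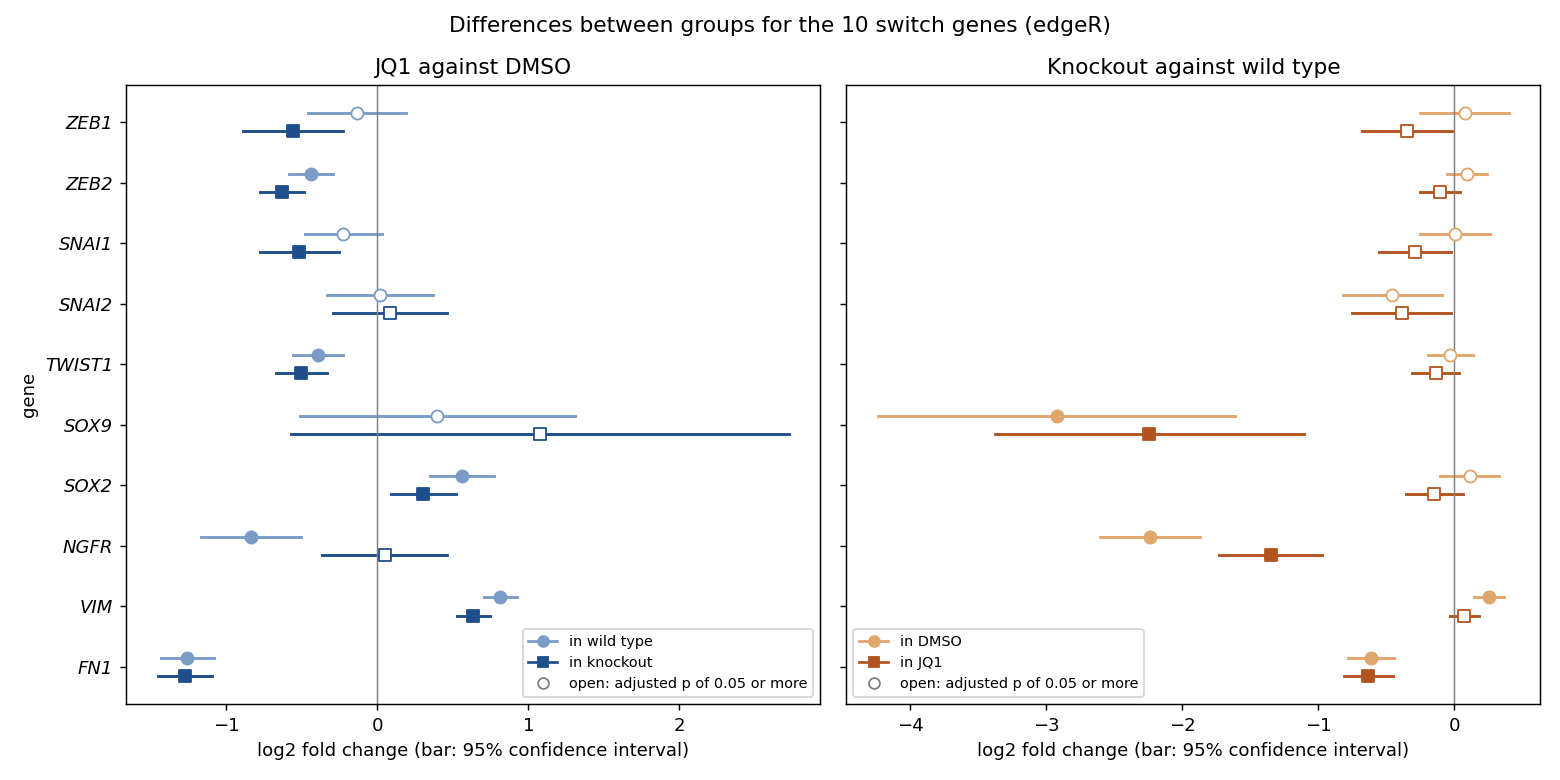
Log2 fold changes (horizontal axes) with 95% confidence intervals for the 10 genes (rows), for JQ1 against DMSO in each genotype (left) and knockout against wild type in each treatment (right); filled symbols passed an adjusted p of 0.05. VIM and FN1 lie on opposite sides of 0 on the left, and NGFR, SOX9 and FN1 lie below 0 on the right in both treatments.

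The neural crest markers NGFR and SOX9 were lower in the knockout. NGFR, the neurotrophin receptor, was at 7.004, 9.14 and 7.89 CPM in the wild-type DMSO libraries and at 5.12, 4.16 and 4.14 CPM in wild-type JQ1. In the knockout it was at 1.28, 1.79 and 2.04 CPM in DMSO and at 1.68, 1.66 and 1.90 CPM in JQ1. All 6 knockout libraries lay below all 6 wild-type libraries, and in wild type the JQ1 libraries lay below the DMSO libraries. In DMSO the knockout had 21.2% of the wild-type level (log2 fold change -2.24, SE 0.17, edgeR adjusted p 1.06e-06), and in JQ1 39.2% (-1.35, SE 0.18, edgeR adjusted p 0.000163). JQ1 lowered NGFR in wild type to 56.0% of the DMSO level (-0.84, SE 0.15, edgeR adjusted p 0.00069). In the knockout, where a library held 40 to 60 counts of it, the difference with JQ1 was 0.05 with a 95% interval from -0.37 to 0.46, and the groups overlapped.

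SOX9, a neural crest and glial transcription factor, was close to the lower limit of what these libraries can measure. It had 22, 13 and 18 counts in wild-type DMSO and 15, 26 and 24 in wild-type JQ1. The knockout libraries held 3, 3 and 0 counts in DMSO and 7, 3 and 2 in JQ1, below every wild-type library. The summed counts gave a ratio of knockout to wild type of 0.1252 in DMSO (6 against 53 counts; 95% interval 0.0440 to 0.291) and 0.207 in JQ1 (12 against 65; 0.102 to 0.387), scaled for library size and with intervals that cover counting error only. The edgeR adjusted p was 0.00733 in DMSO (log2 fold change -2.92, SE 0.61) and 0.0155 in JQ1 (-2.24, SE 0.53). The call in JQ1 was lost without knockout JQ1 replicate 3 (adjusted p 0.0506), knockout JQ1 replicate 2 (0.0541) or wild-type JQ1 replicate 2 (0.0750), and with limma (0.0724), while the direction stayed. JQ1 against DMSO did not pass for SOX9 in either genotype, with intervals from -0.51 to 1.31 in wild type and from -0.57 to 2.72 in knockout. The antisense transcript SOX9-AS1, on which no call was made, had means of 0.494 CPM in wild-type DMSO and 0.345 in wild-type JQ1. In the knockout its means were 0.427 CPM in DMSO and 0.436 in JQ1. SOX9 itself had means of 0.537 and 0.715 CPM in wild-type DMSO and JQ1, and 0.0664 and 0.151 CPM in knockout DMSO and JQ1. The library kit marks strand, but whether the counting used it is not stated, so reads of the 2 genes may not be fully separated.

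NGFR and SOX9 both lie on chromosome 17. Among the 10 tested genes on each side of NGFR, 0 of 20 passed in knockout against wild type in DMSO (median log2 fold change -0.01) and 1 of 20, lower, in JQ1 (median -0.06). Around SOX9 1 of 20 passed in DMSO, higher (median 0.00), and 5 of 20 in JQ1, 2 higher and 3 lower (median 0.03). Of all tested genes 7.92% passed in DMSO and 8.57% in JQ1. The neighbourhoods, in GENCODE 29 gene order, were examined after the values were seen.

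SOX2, the progenitor factor, rose with JQ1 and did not pass in either knockout comparison. It was at 7.09, 7.22 and 6.38 CPM in wild-type DMSO and at 10.3, 9.95 and 10.2 CPM in wild-type JQ1. In the knockout it was at 7.25, 6.80 and 8.29 CPM in DMSO and at 8.80, 9.13 and 9.59 CPM in JQ1. Within each genotype the 3 JQ1 libraries lay above the 3 DMSO libraries. The rise was 0.56 in wild type (SE 0.10, edgeR adjusted p 0.000534) and 0.30 in knockout (SE 0.10, edgeR adjusted p 0.0301). The knockout call was lost in 7 of 21 alternatives, among them the fit without knockout JQ1 replicate 3 (0.0768) and scaling by library totals (log2 fold change 0.19, adjusted p 0.181). It was also lost without knockout DMSO replicate 1 (0.0923), knockout DMSO replicate 2 (0.133) or knockout JQ1 replicate 2 (0.0568). Knockout against wild type gave 0.11 in DMSO (95% interval -0.11 to 0.33, edgeR adjusted p 0.623) and -0.15 in JQ1 (-0.36 to 0.06, edgeR adjusted p 0.454). In JQ1 all 3 knockout libraries lay below the wild-type libraries.

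Of the 5 EMT transcription factors, ZEB2 and TWIST1 fell with JQ1 in both genotypes, and none of the 5 passed for knockout against wild type in either treatment by edgeR. ZEB2 was at 66.5, 65.2 and 72.8 CPM in wild-type DMSO and 49.0, 50.5 and 51.4 CPM in wild-type JQ1. In the knockout it was at 76.9, 69.3 and 71.7 CPM in DMSO and at 50.7, 44.9 and 44.9 CPM in JQ1. The JQ1 and DMSO libraries did not overlap in either genotype, and knockout and wild type overlapped in both treatments. The level with JQ1 was 73.8% of that with DMSO in wild type (log2 fold change -0.44, SE 0.07, edgeR adjusted p 0.00017) and 64.4% in knockout (-0.63, SE 0.07, edgeR adjusted p 5.32e-06).

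TWIST1, a basic helix-loop-helix factor, went from 20.7, 21.8 and 22.8 CPM to 18.03, 16.4 and 15.2 CPM with JQ1 in wild type. In the knockout it went from 20.5, 21.6 and 21.9 CPM to 14.8, 14.9 and 15.4 CPM. Again no JQ1 library reached the lowest DMSO library of its genotype. The log2 fold change was -0.40 in wild type (SE 0.08, edgeR adjusted p 0.00121) and -0.50 in knockout (SE 0.08, edgeR adjusted p 0.000165). Knockout and wild type in DMSO differed by -0.03, with a 95% interval from -0.20 to 0.13.

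ZEB1 and SNAI1 passed with JQ1 only in the comparison within the knockout, though neither passed the test of a difference in response between genotypes. ZEB1 was at 67.2, 65.8 and 65.6 CPM in wild-type DMSO and 57.6, 58.9 and 64.5 CPM in wild-type JQ1. In the knockout its libraries spread more, at 82.1, 60.4 and 66.8 CPM in DMSO and 53.9, 55.6 and 32.8 CPM in JQ1, the last being replicate 3. The JQ1 libraries lay below the DMSO libraries in both genotypes. The fall in knockout was -0.56 (SE 0.15, edgeR adjusted p 0.0108). It shrank to -0.35 without knockout JQ1 replicate 3 (adjusted p 0.0109), and did not pass without knockout DMSO replicate 1 (-0.42, adjusted p 0.067). The difference in wild type was -0.13 with a 95% interval from -0.46 to 0.19. In JQ1 all 3 knockout libraries lay below the wild-type libraries, with a difference of -0.35 (SE 0.15, edgeR adjusted p 0.208) that passed with no low-count filter (-0.36, adjusted p 0.00329) and was -0.14 without knockout JQ1 replicate 3 (adjusted p 0.426).

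SNAI1, encoding Snail, was at 12.5, 14.4 and 14.0 CPM in wild-type DMSO and 12.2, 11.9 and 10.9 CPM in wild-type JQ1. The knockout had 12.1, 15.3 and 13.6 CPM in DMSO and 8.53, 8.68 and 11.3 CPM in JQ1. The JQ1 libraries were lower in both genotypes. The difference was -0.52 in knockout (SE 0.12, edgeR adjusted p 0.00426) and -0.23 in wild type (SE 0.12, edgeR adjusted p 0.172), which passed when libraries were scaled by their totals alone (adjusted p 0.0270). Knockout against wild type in JQ1 was -0.29 (edgeR adjusted p 0.195) and passed without knockout JQ1 replicate 3 (-0.44, adjusted p 0.0240). SNAI2, encoding Slug, passed in none of the 4 comparisons, with 49 to 98 counts a library. It was at 2.41, 2.76 and 2.69 CPM in wild-type DMSO and 2.42, 2.82 and 2.72 CPM in wild-type JQ1. The knockout libraries, at 1.57, 1.89 and 2.28 CPM in DMSO and 2.28, 2.11 and 1.71 CPM in JQ1, all lay below the wild-type libraries, with log2 fold changes of -0.46 in DMSO (edgeR adjusted p 0.135) and -0.39 in JQ1 (edgeR adjusted p 0.21).

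The mesenchymal products VIM and FN1 moved in opposite directions under JQ1 and, in DMSO, in the knockout. VIM was at 2438, 2471 and 2482 CPM in wild-type DMSO and at 4317, 4450 and 4223 CPM in wild-type JQ1. In the knockout it was at 2868, 3018 and 2923 CPM in DMSO and at 4378, 4344 and 4949 CPM in JQ1. The 4 groups fell into DMSO and JQ1 levels with no overlap, and within DMSO every knockout library lay above every wild-type library. JQ1 raised VIM by 0.81 in wild type (SE 0.05, edgeR adjusted p 2.90e-08) and by 0.63 in knockout (SE 0.05, edgeR adjusted p 2.65e-07). The knockout was higher by 0.25 in DMSO (SE 0.05, edgeR adjusted p 0.00503), while in JQ1 the difference was 0.07, with a 95% interval from -0.03 to 0.18. VIM had 69780 to 156327 counts a library, so its values carry little counting error.

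FN1 went from 76.3, 81.2 and 76.0 CPM in wild-type DMSO to 31.8, 33.9 and 31.9 CPM in wild-type JQ1. In the knockout it went from 47.0, 55.5 and 50.1 CPM in DMSO to 18.8, 20.7 and 23.4 CPM in JQ1. No 2 groups overlapped, so the order was wild-type DMSO, knockout DMSO, wild-type JQ1 and knockout JQ1. JQ1 left 41.8% of the DMSO level in wild type (log2 fold change -1.26, SE 0.08, edgeR adjusted p 4.19e-08) and 41.3% in knockout (-1.28, SE 0.08, edgeR adjusted p 3.77e-08). The knockout had 65.3% of the wild-type level in DMSO (-0.61, SE 0.08, edgeR adjusted p 0.000188) and 64.5% in JQ1 (-0.63, SE 0.08, edgeR adjusted p 0.00021). Fibroblast markers (6 genes) summed to 11.8 to 13.3 CPM in wild-type DMSO and 10.5 to 13.2 in wild-type JQ1. In the knockout they summed to 9.61 to 11.03 CPM in DMSO and 8.10 to 9.58 in JQ1. The sum held genes that moved in opposite directions. LUM, which encodes the matrix proteoglycan lumican, fell with JQ1 as FN1 did, from 3.86 ± 0.855 to 0.504 ± 0.136 CPM in wild type and from 4.36 ± 0.630 to 0.631 ± 0.179 CPM in knockout (SD, n = 3; log2 fold changes -2.92 and -2.80, edgeR adjusted p 6.91e-07 and 7.57e-07). DCN (-1.48) and COL1A1 (-1.54) passed lower in wild type but not in knockout, where COL1A1 was lower by 0.34. COL1A1 held 26 to 42 counts a library in wild-type DMSO and 8 to 14 in wild-type JQ1. PDGFRA, a growth factor receptor, rose with JQ1 by 0.64 and 0.61. It was lower in the knockout by 0.50 in DMSO and 0.53 in JQ1, with calls lost without any 1 of 4 and of 3 of the 6 libraries compared. COL1A2 held 2 to 4 counts a library in wild-type DMSO and 0 elsewhere. The part of these markers in the result was not tested.

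Keratinocyte markers summed to 3.998 to 7.12 CPM over all libraries (5 genes) and endothelial markers to 0.812 to 2.39 CPM (4 genes). The 5 leukocyte markers summed to 14.7 to 17.1 CPM in wild-type DMSO and 14.2 to 16.4 in wild-type JQ1. In the knockout the sum was 10.4 to 16.7 CPM in DMSO and 8.97 to 10.01 in JQ1, where it was lowest. Nearly all of it was CD68, with means of 15.2, 15.2, 13.6 and 9.15 CPM in these 4 groups. PTPRC, CD14 and CD3E had group means of at most 0.202 CPM, and MS4A1 had 0 counts. The part of these keratinocyte, endothelial and leukocyte markers in the differences of the 10 genes was not tested.

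Whether the JQ1 response differed with the genotype was tested as an interaction, the response in knockout minus that in wild type. None of the 10 genes passed by edgeR, where 0.134% of all tested genes did (0.0323% with a higher and 0.101% with a lower response in knockout; 29 genes, with 1817 at an unadjusted p under 0.05), and none passed by DESeq2. At an unadjusted p under 0.05 there were 2 of the 10. For NGFR the difference was 0.88 (SE 0.25, unadjusted p 0.00296, edgeR adjusted p 0.269; adjusted p from 0.143 to 0.534 over 20 alternatives). For VIM it was -0.18 (SE 0.07, unadjusted p 0.024, edgeR adjusted p 0.512). FN1 had a difference of -0.02 with a 95% interval from -0.27 to 0.23, which leaves out larger differences between its falls in the genotypes. For ZEB1 (-0.43, interval -0.89 to 0.04), SNAI1 (-0.29, interval -0.66 to 0.08) and SOX2 (-0.26, interval -0.56 to 0.05) the intervals reached 0 and left room for differences in response of some size.

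Genes related to the 10 by function were examined in lists drawn from general knowledge. The counts of each list stand against the shares of all tested genes that passed: with JQ1 16.9% higher and 16.2% lower in wild type and 16.7% and 17.8% in knockout, and for the knockout 3.47% higher and 4.44% lower in DMSO and 3.01% and 5.56% in JQ1. Among 24 other EMT and neural crest factors, of which 23 were tested, JQ1 gave more falls than rises. In wild type 4 passed higher and 11 lower (median log2 fold change -0.43, against -0.03 for all tested genes), and in knockout 3 higher and 10 lower (median -0.43 against 0.00). With library totals the counts were 2 and 13 in wild type and 2 and 14 in knockout. SOX8, a relative of SOX9, fell by 3.18 in wild type (SE 0.42, edgeR adjusted p 3.78e-05) from 1.20 to 0.127 CPM, the latter from 2 to 6 counts a library. In knockout it fell from 29 to 35 counts a library in DMSO to 0 to 3 with JQ1, so the size of that fall is poorly fixed: the fitted -4.37 became -3.725 without knockout JQ1 replicate 3 (edgeR adjusted p 1.35e-05 and 2.79e-05). RXRG, a retinoid receptor that marks neural crest-like melanoma cells beside NGFR, fell by 1.92 and 2.14 with JQ1 (edgeR adjusted p 3.46e-07 and 3.61e-07). It was also lower in the knockout, by 0.87 in DMSO and 1.09 in JQ1 (edgeR adjusted p 0.00135 and 0.00147). ID1, an inhibitor of helix-loop-helix factors, rose by 0.69 in wild type and 0.77 in knockout, and MSX2, a homeobox factor, rose by 0.71 and 0.76 (edgeR adjusted p from 1.50e-05 to 0.00754 for these). Comparing the genotypes gave 3 higher and 5 lower in knockout in DMSO (median -0.05) and 2 higher and 4 lower in JQ1 (median -0.18).

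In that list MEF2C, a neural crest and muscle transcription factor, was lower in the knockout by 0.69 in both treatments (edgeR adjusted p 0.00139 in DMSO and 0.0018 in JQ1). TWIST2 was lower in DMSO by 1.51 (edgeR adjusted p 0.0176; lost without any of 4 of the 6 libraries compared, adjusted p up to 0.0931). TFAP2B was higher in both treatments (0.36 and 0.31) and ID3 was higher in DMSO (0.48). SOX6 was higher by 0.32 in DMSO (edgeR adjusted p 0.0481, lost without any 1 of the 6 libraries compared) and by 0.51 in JQ1 (0.00619, not passed by limma, adjusted p 0.183). The ID3 call was lost without wild-type DMSO replicate 1 or 2 or knockout DMSO replicate 2 or 3, and that of TFAP2B in JQ1 without any 1 of the 3 wild-type JQ1 libraries.

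Of 21 epithelial genes that EMT factors repress, 10 were tested. Their levels in wild-type DMSO ranged widely: KRT18, a keratin of simple epithelia, was at 125 ± 10.8 CPM (SD, n = 3), while CDH1, which encodes E-cadherin, had 0 counts in all 12 libraries, where a count of 0 allows up to 3. Both were named after their values were seen. None of the 10 passed higher in any of the 4 comparisons. With JQ1, 4 passed lower in wild type and 4 in knockout (medians -0.44 and -0.56). In the knockout, 3 passed lower than wild type in DMSO and 4 in JQ1 (medians -0.19 and -0.24). The desmosome gene PKP3 fell with JQ1 from 11.4 ± 0.961 to 4.80 ± 0.119 CPM in wild type and from 12.1 ± 1.79 to 3.87 ± 0.766 CPM in knockout (SD, n = 3; log2 fold changes -1.25 and -1.63). The tight junction gene CLDN1 was lower in the knockout by 2.51 in DMSO and 2.55 in JQ1 (edgeR adjusted p 0.00142 and 0.013). Knockout libraries held 5 to 8 counts of it in DMSO and 0 to 4 in JQ1, so both sizes are poorly fixed. With JQ1 in wild type CLDN1 was lower by 1.46 (edgeR adjusted p 0.00759, but 0.126 by limma). JUP, which encodes plakoglobin, fell with JQ1 by 0.79 in wild type and 1.35 in knockout (edgeR adjusted p 0.0037 and 0.000135), and in JQ1 it was lower in the knockout by 1.15 (0.00253). DSP, which encodes desmoplakin, was lower in the knockout by 0.66 in DMSO and 0.94 in JQ1 (0.000991 and 6.71e-05). CLDN4 was lower by 0.58 in DMSO (0.0303, lost without any 1 of 4 of the 6 libraries compared) and 0.98 in JQ1 (0.00137).

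Of 26 mesenchymal effectors 20 were tested, and with JQ1 more of them passed higher, as VIM did, than lower, as FN1 did. In wild type 13 passed higher and 2 lower (median 0.38, against -0.03 for all tested genes), where 16.9% of all tested genes passed higher and 16.2% lower. In knockout 11 passed higher and 1 lower (median 0.37 against 0.00), where 16.7% and 17.8% of all tested genes did. TNC, the matrix protein tenascin C, rose from 1183 ± 18.6 to 2977 ± 147 CPM in wild type and from 1519 ± 92.8 to 3639 ± 401 CPM in knockout (SD, n = 3; log2 fold changes 1.33 and 1.26, edgeR adjusted p 5.09e-09 and 6.67e-09). LOXL2, a collagen cross-linking enzyme, rose by 1.18 and 1.23. MMP14, a membrane-bound metalloprotease, fell by 0.56 and 0.48, and COL1A1, at 1.06 CPM or less, fell by 1.54 in wild type. The comparison of genotypes was balanced, with 3 higher and 3 lower in DMSO and 2 higher and 3 lower in JQ1 (medians -0.07 and -0.02). CDH2, which encodes N-cadherin, was higher in the knockout by 0.42 in DMSO and 0.31 in JQ1, and COL5A1 was lower by 0.84 and 0.82 (edgeR adjusted p from 4.63e-05 to 0.00408 for these). S100A4 was lower by 0.46 in DMSO and 0.33 in JQ1, the latter lost without any 1 of 3 of the 6 libraries compared, and ITGA5, an integrin that binds fibronectin, was lower by 0.36 and 0.51. TNC was higher by 0.36 in DMSO and by 0.29 in JQ1, the latter call lost without wild-type JQ1 replicate 3 (adjusted p 0.0807). ACTA2 was higher in DMSO by 0.71, lost without wild-type DMSO replicate 1 or 2 or knockout DMSO replicate 3.

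**Figure D4:**
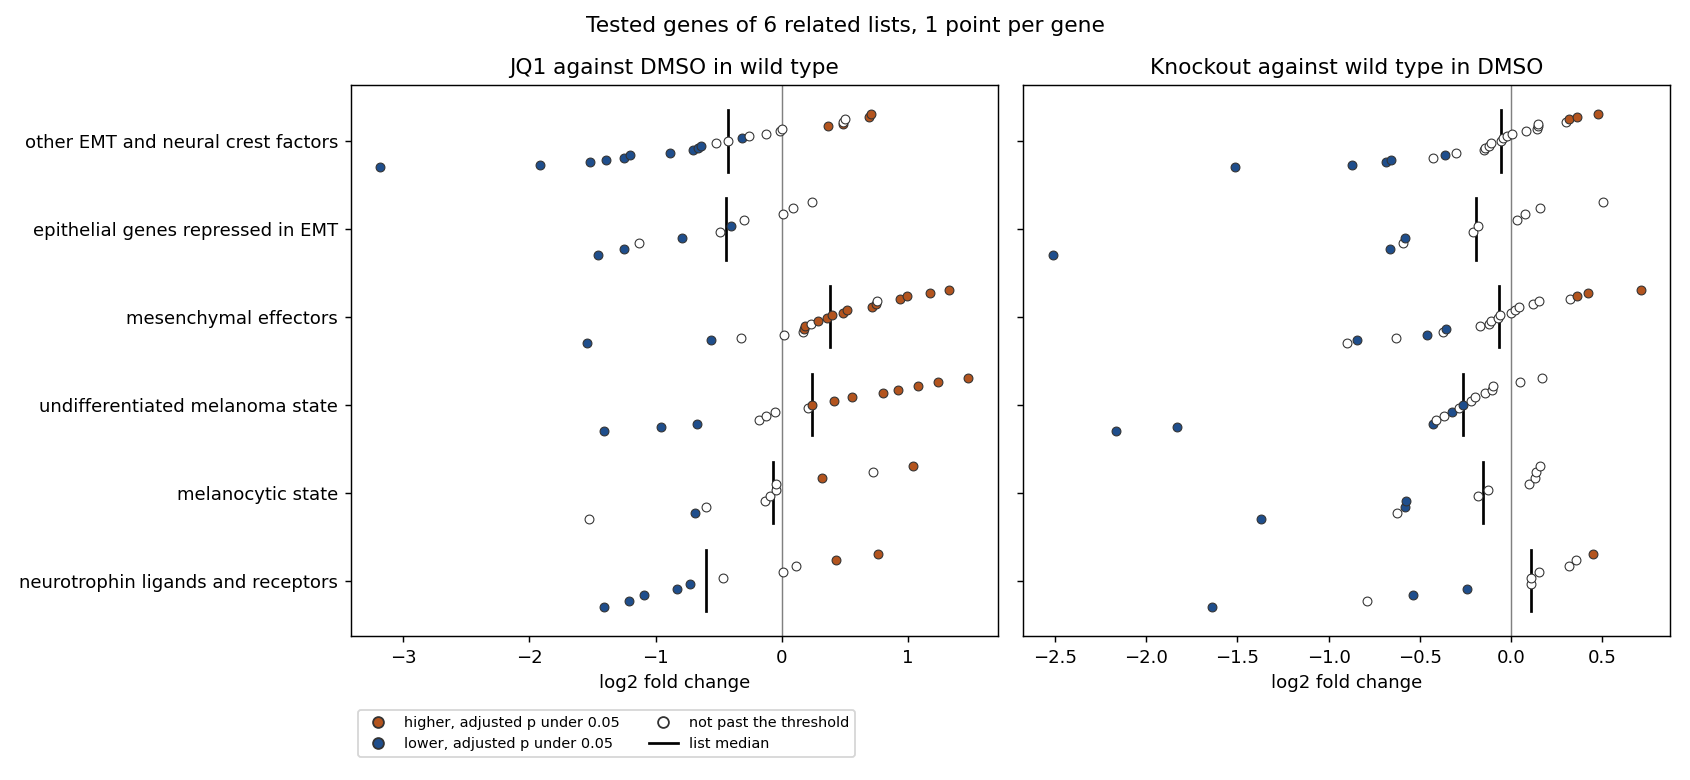
Log2 fold changes of the tested genes of 6 related lists (points, 1 per gene; line, median) for JQ1 against DMSO in wild type (left) and knockout against wild type in DMSO (right), with colours for calls. On the left mesenchymal effectors lie mostly above 0 (13 higher, 2 lower, where 16.9% and 16.2% of all tested genes passed). On the right the calls of the undifferentiated state (5 lower), the epithelial genes (3 lower) and the melanocytic genes (3 lower) all lie below 0. Of all tested genes 3.47% passed higher and 4.44% lower there.

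Genes of the undifferentiated melanoma state (15 of 16 tested) passed mostly higher with JQ1 and, between genotypes, lower in the knockout. With JQ1 8 passed higher and 3 lower in wild type (median 0.24; 7 and 5 with library totals) and 7 higher and 4 lower in knockout (median 0.18). The knockout had 0 higher and 5 lower in DMSO (median -0.26) and 0 higher and 7 lower in JQ1 (median -0.29). CTGF, a YAP target, rose with JQ1 by 1.48 in wild type and 1.31 in knockout (edgeR adjusted p 4.58e-08 and 1.28e-07). PDGFRB, a growth factor receptor, fell by 1.41 and 1.83 with JQ1, and was lower in the knockout in JQ1 by 0.83 (edgeR adjusted p 0.00335). NRG1, a ligand of ERBB3, was lower in the knockout in DMSO by 1.83 (edgeR adjusted p 0.00272), where knockout libraries held 4 to 19 counts. That log2 fold change ran from -2.09 to -1.41 with a library left out. NRG1 also fell by 0.96 with JQ1 in wild type, lost without any 1 of 5 of the 6 libraries compared (adjusted p up to 0.107). JUN rose with JQ1 by 1.08 in wild type and 1.53 in knockout, and INHBA fell by 0.67 and 0.86. TGFBI, a matrix protein induced by TGF-beta, went from 55.8 ± 2.80 CPM in wild-type DMSO to 12.4 ± 1.25 CPM in knockout DMSO (SD, n = 3; log2 fold change -2.17, edgeR adjusted p 1.82e-09). It was 2.98 lower in knockout in JQ1, and rose with JQ1 by 1.24 in wild type and 0.43 in knockout.

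Among 14 melanocytic genes 10 were tested. The number that passed was 2 higher and 1 lower with JQ1 in wild type (median -0.07; 0 higher and 5 lower with library totals), and 1 higher and 3 lower in knockout (median -0.11). Knockout against wild type gave 0 higher and 3 lower in DMSO (median -0.15) and 0 higher and 2 lower in JQ1 (median -0.26). Of all tested genes 33.1% and 34.4% passed with JQ1, and 7.92% and 8.57% between genotypes. MITF, the lineage's master regulator, was lower in the knockout by 0.58 in DMSO and 0.37 in JQ1 (edgeR adjusted p 0.000323 and 0.0102; in JQ1 0.0534 with only those groups fitted). GPNMB was lower in the knockout by 0.58 in DMSO and 0.76 in JQ1 (edgeR adjusted p 7.68e-05 and 5.48e-06), and OCA2 in DMSO by 1.37 (0.00181). RAB27A, which carries melanosomes, fell with JQ1 by 0.69 in wild type and 0.92 in knockout. PMEL rose with JQ1 by 1.80 in knockout, to 1.18 ± 0.257 CPM (SD, n = 3). Its call in wild type (1.04, edgeR adjusted p 0.0340) had overlapping groups and was lost without any 1 of 4 of the 6 libraries compared. The rise of MC1R in wild type (0.32, edgeR adjusted p 0.0355) was likewise lost without any 1 of 4. GPNMB fell in knockout with JQ1 by 0.23, lost without knockout DMSO replicate 1 or 3.

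Around NGFR, 10 neurotrophin ligands, receptors and adaptors passed the filter on low counts and were tested. NTF3, which encodes the ligand neurotrophin-3, had 0 counts in all 12 libraries, where a count of 0 allows up to 3, and was named after its values were seen. With JQ1 2 passed higher and 5 lower in wild type (median -0.60), and 3 higher and 3 lower in knockout (median -0.29). Between genotypes there were 1 higher and 3 lower in DMSO (median 0.11) and 1 higher and 0 lower in JQ1 (median 0.09). SORT1, encoding sortilin, the co-receptor with which NGFR binds proneurotrophins, rose with JQ1 from 75.0 ± 1.85 to 127 ± 5.52 CPM in wild type and from 63.4 ± 4.09 to 124 ± 4.60 CPM in knockout (SD, n = 3; edgeR adjusted p 2.88e-07 and 2.30e-08). MAGED1, which binds the intracellular part of NGFR, rose with JQ1 by 0.43 in wild type and 0.39 in knockout, and NTRK3, the receptor of neurotrophin-3, fell by 1.09 in wild type and 1.26 in knockout. SORCS1 was higher in the knockout by 0.45 in DMSO and 0.45 in JQ1. BDNF, a ligand of NGFR, rose with JQ1 in knockout by 0.87 (edgeR adjusted p 0.000284). It was lower in the knockout in DMSO by 0.54 (0.0353), a call lost with DESeq2 (0.0971) and without each of 5 of the 6 libraries compared. SORT1 was lower in the knockout in DMSO by 0.24, also lost without each of 5 of the 6 libraries, and SORCS2 fell with JQ1 by 0.83 and 0.95, with calls lost without 4 and 2 of the libraries compared.

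Of 7 antisense or overlapping genes of the 10, 5 were found and tested, and ZEB2-AS1 alone passed. With JQ1, 1 of the 5 passed in each genotype, where 33.1% of all tested genes passed in wild type and 34.4% in knockout. Between genotypes 0 passed, where 7.92% of all tested genes passed in DMSO and 8.57% in JQ1. ZEB2-AS1 was lower with JQ1 in wild type (log2 fold change -1.55, edgeR adjusted p 0.0162) and in knockout (-1.39, edgeR adjusted p 0.0307), as ZEB2 was, at group means of 0.279 to 0.836 CPM. The call in knockout was lost without knockout JQ1 replicate 3. ZEB2-AS1 was named after its values were seen, and without the strand setting of the counting its reads cannot be fully told apart from those of ZEB2.

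For each gene the 2 others with the most similar levels over the 12 libraries were listed, among the 15410 tested genes averaging 1 CPM or more, by Pearson's r of log2 CPM. These values describe libraries that fall into 4 groups and share scaling, and no test was made. The pattern of VIM was closest to PNMA1 (r = 0.998), and that of FN1 to AZGP1 (0.994) and CAPS (0.992). NGFR was closest to GOLGA7B (0.970) and PNMA2 (0.965), and SOX9 to SDCCAG8 (0.949) and MSR1 (0.947). SOX2 was closest to BCL6 (0.962) and ADO (0.960). Among the EMT factors ZEB1 was closest to TPP2 (0.984) and SMARCA5 (0.982), ZEB2 to FAM60A (0.987) and RETREG1 (0.983), and TWIST1 to SYNPO (0.986) and TXNRD2 (0.984). SNAI1 was closest to RIN1 (0.964) and COL6A2 (0.962), and SNAI2 to FUT9 (0.909) and CDK19 (0.908). None of the 10 genes was among the closest 2 of another.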

How the data were processed

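RNA depleted of ribosomal RNA from 12 A375 libraries was sequenced from directional libraries, per the labels' protocols. Estimated counts per gene symbol, not normalized, were deposited by the authors. The submitters' processing notes name Trim Galore, cutadapt, FastQC, MultiQC, kallisto, DESeq2 and build GRCh38.p10, without versions; the annotation release and the use of strand are not given in the sources used here. The authors also deposited a normalized signal for 32828 symbols, used in an alternative only. The ratio of count to signal differed between genes, from 0.816 to 1.22 over the libraries for SNAI1 and from 0.781 to 1.27 for FN1. The limma alternative therefore differs from the main fit in scaling by gene as well as in the test. Columns were matched to samples by name and groups taken from the genotype and treatment labels.

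Estimated counts were rounded to whole numbers, as planned, and filtered with edgeR's filterByExpr (minimum count 10), which left 21698 genes. Libraries were scaled by TMM (factors 0.926 to 1.06). A model with a term per group was fitted to all 12 libraries with edgeR's quasi-likelihood test (edgeR 4.0.16, limma 3.58.1, R 4.3.3), with Benjamini-Hochberg adjustment over all tested genes. Standard errors (SE) were taken as the size of a log2 fold change over the root of its F statistic. The method was tested on simulated counts with the same replicate spread for every gene and changes placed only in genes above 1 CPM. That test does not cover genes as low as SOX9, or a library that stands apart from its replicates. Exon lengths, chromosomes and gene order came from GENCODE 29 by symbol.

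The genes and lists were chosen with earlier results of these data known. Named were the 10 genes, MAPKAPK2 and, per list and comparison, up to 2 rises and 2 falls of largest size past the threshold with a mean of at least 1 CPM. This rule did not cover DCN, with group means of 0.898 CPM or less, or the genes said to be named after their values were seen. Alternatives comprised other scalings, filters, designs and prior counts, DESeq2 1.42.0, limma on the deposited signal with a pseudocount of 0.5, a replicate block and leaving out each library. Alternatives for the lists and their genes were chosen after seeing the data. Results for some genes of these lists are not reported here.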

Additional observations from a re-analysis of the deposited data

Results flagged for a closer look

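The response of TGFBI to JQ1 differed between the genotypes by the test of the difference itself. It was smaller in the knockout by a log2 difference of -0.81 (SE 0.13, edgeR adjusted p 0.0208). In wild type the mean went from 55.8 CPM with DMSO to 132 CPM with JQ1, and in knockout from 12.4 to 16.7 CPM. The call was lost without wild-type DMSO replicate 1 (adjusted p 0.0605), 2 (0.05005) or 3 (0.0580), wild-type JQ1 replicate 1 (0.0579) or 2 (0.0735), or knockout DMSO replicate 2 (0.0592) or 3 (0.0553).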

How the results depend on the processing

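Over 21 alternatives, the 20 differences of the 10 genes that passed were recomputed 418 times: 406 kept their direction and their call, 12 lost the call and 0 changed direction. Of 616 recomputed differences that had not passed, 588 stayed as they were, 3 passed (ZEB1 and SNAI1 in knockout against wild type in JQ1, SNAI1 with JQ1 in wild type) and 25 changed sign. For the other named genes 2574 of 2723 were the same, 147 lost the call, 2 gained it and 0 changed direction. The number of the 10 genes that passed ran from 6 to 7 with JQ1 in wild type, 5 to 7 with JQ1 in knockout, 3 to 4 and 2 to 4 for the knockout in DMSO and in JQ1, and was 0 for the difference in response. Without knockout JQ1 replicate 3 it was 6, 6, 4, 3 and 0. With the replicate block it was 6, 7, 4, 3 and 0, as without it. The replicate numbers did not pair the libraries: none of 18 same-numbered pairs had a correlation of deviations over 0.1 (-0.11 to 0.08), and 1 of 12 libraries correlated best with its own number.

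Signs changed for differences that had not passed. With library totals these were SNAI2 with JQ1 in wild type (-0.112) and knockout (-0.0299), NGFR with JQ1 in knockout (-0.0700) and SNAI1 in knockout against wild type in DMSO (-0.0426). With a minimum mean of 1 CPM they were SNAI2 with JQ1 in wild type (-0.00901) and SNAI1 in the knockout in DMSO (-0.000637), and with limma the difference in response of FN1 (0.0159). With a library left out, SNAI2 with JQ1 ran from -0.0365 to 0.0819 in wild type and from -0.0407 to 0.235 in knockout, and its difference in response from -0.0610 to 0.214. NGFR with JQ1 in knockout ran from -0.124 to 0.200. For the knockout in DMSO, SNAI1 ran from -0.0704 to 0.0954, TWIST1 from -0.0562 to 0.0133 and ZEB1 from -0.0491 to 0.185. The difference in response ran from -0.107 to 0.0547 for FN1 and from -0.00862 to 1.09 for SOX9, where it was 0.68 (95% interval -1.17 to 2.53) with all libraries.

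Over all genes, the count that passed for the difference in response was 154 with DESeq2, 236 with no low-count filter and 8 to 88 with a library left out. For the knockout it was 2619 in DMSO and 922 in JQ1 with only the groups compared, and 1092 to 2650 and 1223 to 2331 with a library left out. Melanocytic genes with JQ1 in wild type numbered 5 with library totals, and antisense genes in knockout 0 without knockout JQ1 replicate 3. The cause was not tested. Depth limits SOX9, SNAI2 and, in the knockout, NGFR most.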
